A study of Mus musculus with 15 samples.

Results

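The fibroblast growth factor (FGF) pathway genes described here are 34 of the 23393 genes in a table of mRNA counts from mouse neural progenitors. They were chosen by name as parts of FGF signalling through the kinase ERK, and comprise 13 FGF ligands, 9 receptors and receptor partners, and 12 genes of the feedback and target layer. Of the 34, 32 had enough reads to be tested. The study compared progenitors in which transcription factors of the ventral neural tube had been switched on with control progenitors, to find genes that the factors lower. All 15 libraries were made from 129/Ola embryonic stem cells turned into neural progenitors by 2 days in suspension after feeder cells had been removed, then 500 nM all-trans retinoic acid. All were given 1 ug/ml doxycycline for 12 hr, which switches on a transgene behind a doxycycline-responsive promoter (TRE).

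The 5 lines with 2 libraries each carried TRE_Nkx2.2, TRE_Nkx6.1, TRE_Olig2, TRE_Nkx6.1-P2A-Nkx2.2 or TRE_Nkx6.1-P2A-Olig2. The P2A peptide lets 1 transcript give separate proteins, so the last pair are called the 2-factor lines below. The control, with 5 libraries, was the mA2.lox.Cre line, in which doxycycline switches on TRE_Cre, and it shared the strain, the retinoic acid and the doxycycline with every line. The stem cells had been kept without serum on sparse feeders with LIF, CHIR99021 and PD184352. PD184352 inhibits MEK, the kinase that activates ERK, and the labels place it in the stem cell medium only. Whether the libraries of a group were separate cultures or clones is not stated in the labels, and the p-values therefore reflect only how far these libraries varied, possibly for technical reasons.

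FGF ligands bind receptor tyrosine kinases together with heparan sulfate or Klotho co-receptors, and the docking protein Frs2 links the activated receptor to Ras, Raf, MEK and ERK. ERK signalling switches on ETS factors of the Pea3 group (Etv1, Etv4 and Etv5) and its own inhibitors, among them Sprouty and Spred proteins, the dual-specificity phosphatases that remove phosphate from ERK, and Il17rd (also called Sef), so these genes are widely read as a sign of FGF activity. In the embryo FGF signals hold the caudal neural plate in an early state and act against retinoic acid, and in mouse embryonic stem cells Fgf4 and ERK move cells out of the naive state.

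Library totals ran from 12282038 to 19426544 counts, and the lowest control total, 18015449, was above the highest total of a line, 17751854. Levels are CPM, a gene's counts relative to its library's total on a common scale, scaled between libraries by TMM, edgeR's trimmed-mean factor. Each transgene was high in its own lines. Nkx2-2 held 448 to 506 CPM in the Nkx2.2 line and 358 to 382 in Nkx6.1-P2A-Nkx2.2 cells against 0.261 to 1.39 in the control, Nkx6-1 held 616 to 681 in its 3 lines against 10.9 to 47.3, and Olig2 held 423 to 637 in its 2 lines against 5.58 to 45.1. Reads of the transgene and of the cell's own copy cannot be told apart in gene counts. The 8 neural progenitor markers summed to 590 to 846 CPM in the controls. Vim held 146 to 236 CPM there, Sox2 151 to 191, Nes 73.9 to 142, Pax6 77.8 to 127, Sox3 57.1 to 104 and Sox1 38.5 to 73.95. Hes5 (4.17 to 16.0) and Fabp7 (0.939 to 2.70) were low. Pax6, a progenitor factor of the dorsal and intermediate neural tube, fell in all 5 lines, with mean CPM of 9.27 to 45.7 against 99.8 in the control, and Sox2 fell in the Nkx6.1 line. The libraries also held RNA of 8 pluripotency markers, 211 to 414 CPM in sum in the controls, and of 8 endoderm markers, of which Sox17 fell in the Nkx6.1 line and both 2-factor lines. Control replicate 5 stood apart, with an endoderm sum of 849 CPM against 335 to 462 in the other 4 controls. Its neural progenitor sum was 723.5 CPM. The 8 mesoderm markers summed to 24.4 to 41.1 CPM in the controls, most of it Meox1 (12.4 to 27.2), which fell in the Olig2 line, and Msgn1 was at 0 in every control. The 8 neuron markers (85.1 to 117 CPM) and 8 feeder fibroblast markers (31.1 to 96.5) had no member past the threshold in any line. Of the 8 neural crest markers (31.0 to 44.8 CPM), Tfap2b fell and Erbb3 rose in Nkx6.1-P2A-Nkx2.2 cells and Tfap2a fell in Nkx6.1-P2A-Olig2 cells.

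In the control progenitors the pathway was represented at every step. Levels of different genes are compared here as mean CPM per kilobase of exon. Flrt3, a membrane protein that binds FGF receptors, had 42.5, the receptor Fgfr1 32.8, the ligand Fgf15 23.8 and the receptor Fgfr2 21.8. Next came the kinase-less receptor Fgfrl1 with 18.5, the docking protein Frs2 with 18.2 and the ERK phosphatase Dusp6 with 14.8. No other ligand came near Fgf15 on this scale: the next were Fgf3 with 2.73, Fgf10 with 2.57 and Fgf4 with 1.88. Fgf2, the lowest of the 34, had 0.0564. The receptors Fgfr4 (6.11) and Fgfr3 (5.48) were below Fgfr1 and Fgfr2.

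**Figure D1:**
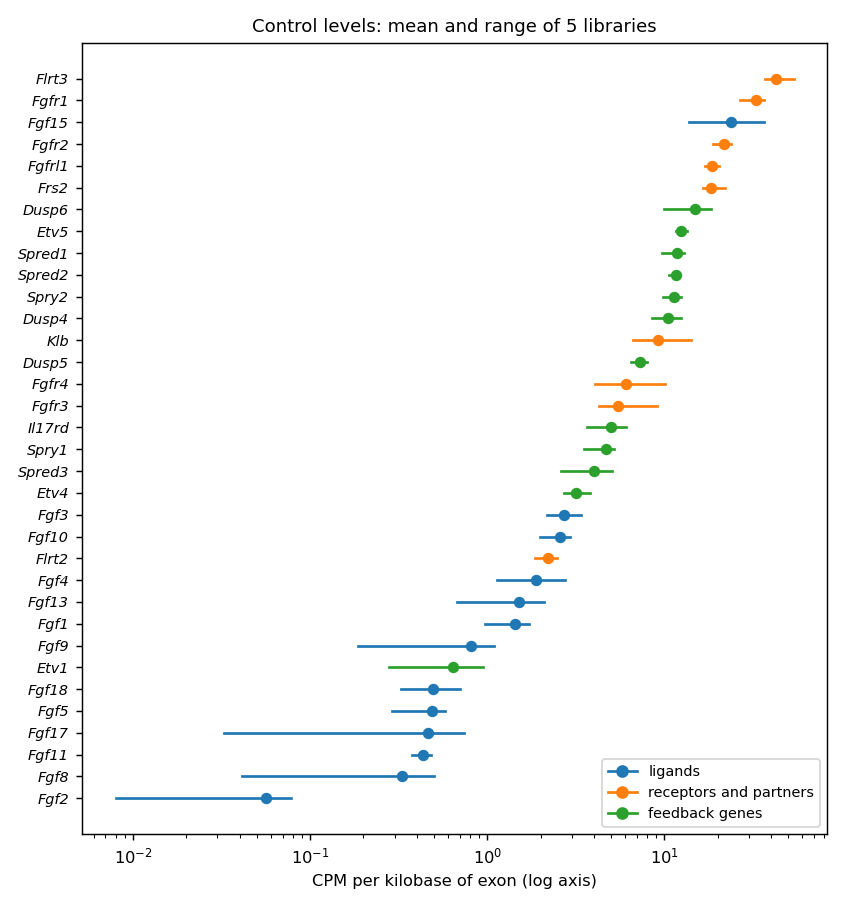
Level of each of the 34 genes in the Cre control, as CPM per kilobase of exon on a log axis; points are means and lines run from the lowest to the highest of 5 libraries, coloured by role. Flrt3 and Fgfr1 are at the top, Fgf15 stands far to the right of the other ligands, and Fgf2 is lowest.

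Each line was compared with the control to see which of these genes the factors lower or raise. Fgf15 fell in 4 of the 5 lines, the exception being the Olig2 line, though with the label number as a block the exception was the Nkx6.1 line. The Pea3-group factor Etv5 fell in the Nkx2.2 line and in both 2-factor lines. Il17rd, a membrane inhibitor of the pathway, and Flrt3 fell in both 2-factor lines, and the ligand Fgf10 and the co-receptor Klb fell in Nkx6.1-P2A-Olig2 cells. None of the 32 tested members rose in any line. These calls are from edgeR's quasi-likelihood test, with p-values adjusted by the Benjamini-Hochberg method over 13982 genes and a threshold of 0.05, as are all adjusted p-values below.

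In the Nkx2.2 line 2 of 32 members fell (Fgf15 and Etv5), where 0.722% of all tested genes passed in either direction and 0.451% were lower. In the Nkx6.1 line 1 member fell (Fgf15), against 0.737% of all tested genes in either direction and 0.565% lower. In the Olig2 line 0 members passed in edgeR's test, against 1.86% of all tested genes, and 0 in DESeq2, against 3.08%. At an unadjusted p under 0.05 it had 8 members, against 12.7% of all tested genes. In Nkx6.1-P2A-Nkx2.2 cells 4 members fell, against 2.85% of all tested genes passing and 1.76% lower. In Nkx6.1-P2A-Olig2 cells 6 members fell, against 2.84% passing and 1.82% lower. The 2-factor lines thus had more members called than the single-factor lines and also more genes called among all those tested, and the differences between 2-factor and single-factor lines were not tested, because the 2-factor libraries carry label numbers of another series (starting 23, against 21) that only the controls share with both.

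These counts rested on few libraries. For the fits below, each without 1 library, the share of all tested genes that passed is not given here. Whether the changes in count are particular to these members was therefore not tested. Without 1 library of the line itself, the Nkx2.2 and Nkx6.1 counts were 0, the Nkx6.1-P2A-Nkx2.2 count was 2 without replicate 1 and 1 without replicate 2, and the Nkx6.1-P2A-Olig2 count was 2 without either. The Nkx2.2 count was also 0 without control replicate 2 or control replicate 4, and 1 without control replicate 1 or 3 or without either library of the Nkx6.1 or Nkx6.1-P2A-Olig2 cells. The Nkx6.1-P2A-Nkx2.2 count was 2 without control replicate 2. Without control replicate 5 the counts in the 5 lines, in the order above, were 2, 1, 1, 5 and 9, the 1 in the Olig2 line being Fgfr3 and the additions in the 2-factor lines being Etv1 in the one and Etv4, Spry1 and Fgf3 in the other.

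Most tested members had values below the control without passing. The median log2 fold change over the 32 was -0.26 in the Nkx2.2 line, -0.15 in the Nkx6.1 line, -0.22 in the Olig2 line, -0.22 in Nkx6.1-P2A-Nkx2.2 cells and -0.34 in Nkx6.1-P2A-Olig2 cells. The median over all tested genes lay between -0.006 and 0.004. Both libraries of the line lay below all 5 controls for 7 members in the Nkx2.2 line (6.69% of all tested genes), 6 in the Nkx6.1 line (9.7%), 1 in the Olig2 line (7.84%), 10 in Nkx6.1-P2A-Nkx2.2 cells (9.99%) and 12 in Nkx6.1-P2A-Olig2 cells (10.4%). Fgf5 passed the filter on low counts through control libraries alone, and Fgf8 and Fgf18 through libraries of the lines alone, so the medians and counts over the tested members are descriptions.

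**Figure D2:**
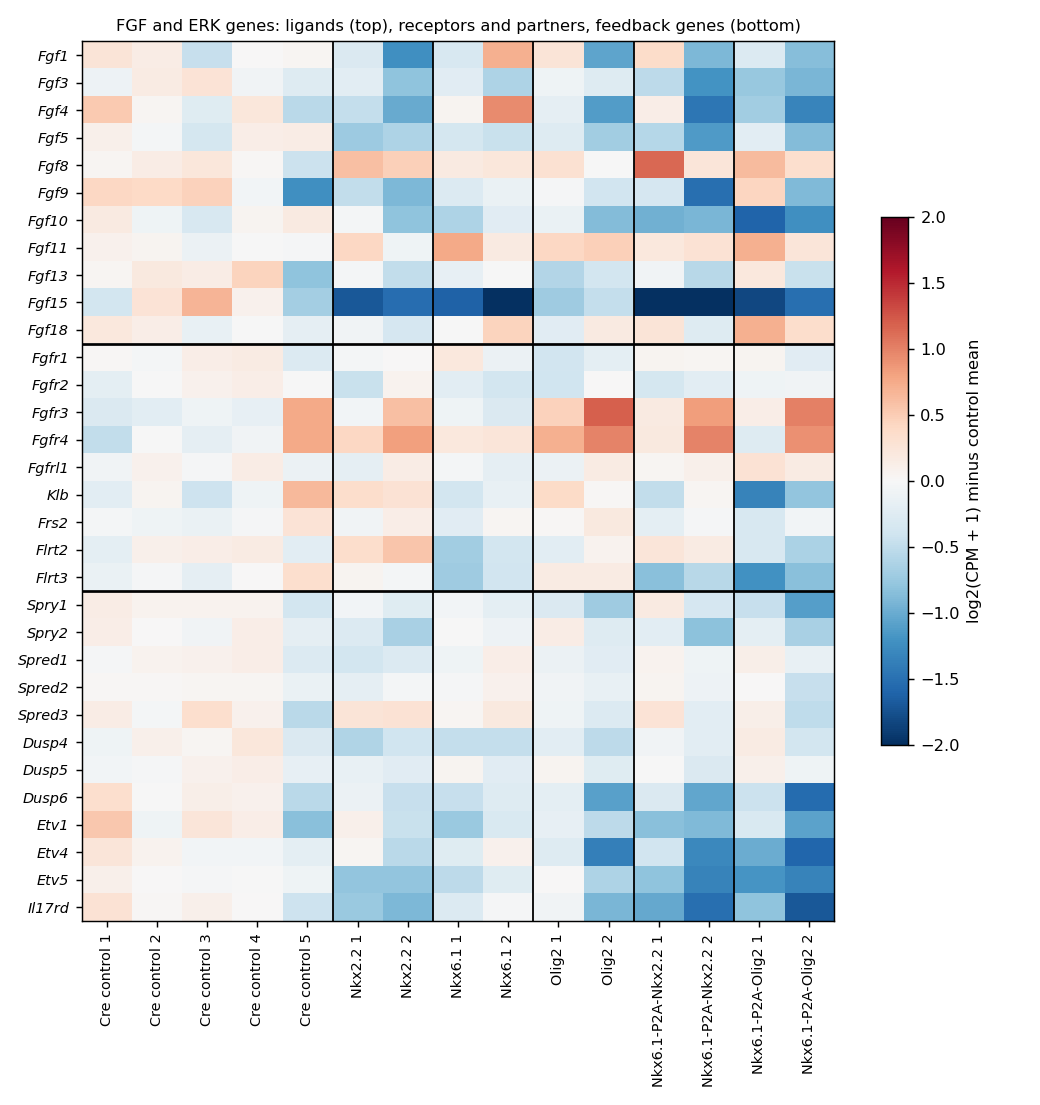
log2(CPM + 1) of each tested member in each of the 15 libraries minus its mean over the 5 control libraries, with ligands at the top, receptors and partners in the middle and feedback genes at the bottom; blue is below and red above the control mean, and the colour scale ends at 2 in each direction. Fgf15 is blue in all 10 libraries of the lines, Etv5 and Il17rd are blue in the 2-factor lines, and Fgfr3 and Fgfr4 are red in control replicate 5.

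Fgf15 is the mouse counterpart of human FGF19, an endocrine FGF that signals through receptors paired with beta-Klotho, and in the embryo it is made by neural progenitors. The gene lies on chromosome 7 (mm10 chr7:144896531-144900953, plus strand). In control replicates 1 to 5 it held 31.4, 49.5, 65.9, 43.1 and 25.1 CPM. The libraries of the lines held 11.9 and 13.4 CPM (Nkx2.2), 12.6 and 7.10 (Nkx6.1), 24.3 and 29.1 (Olig2), 4.09 and 5.48 (Nkx6.1-P2A-Nkx2.2) and 10.8 and 13.7 (Nkx6.1-P2A-Olig2). All libraries of the 4 lines other than Olig2 were below every control, while the Olig2 libraries overlapped the lowest of the controls. By mean the order was control (43.0 ± 16.0 CPM, SD, n = 5), Olig2 (26.7 ± 3.36, SD, n = 2), Nkx2.2 (12.6 ± 1.12), Nkx6.1-P2A-Olig2 (12.2 ± 2.10), Nkx6.1 (9.84 ± 3.87) and Nkx6.1-P2A-Nkx2.2 (4.79 ± 0.987). The Nkx2.2, Nkx6.1-P2A-Olig2 and Nkx6.1 libraries overlapped each other. In RNA of a mixed culture, fewer cells that make a transcript and less transcript per cell cannot be told apart.

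**Figure D3:**
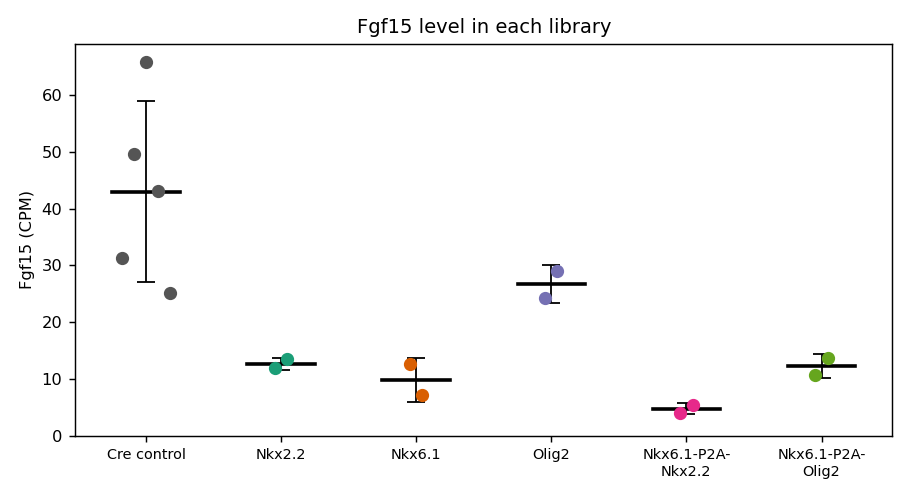
Fgf15 level in CPM in each of the 15 libraries (points), with the mean (bar) and SD (whiskers) of each group. The control libraries spread from 25.1 to 65.9 CPM, the Olig2 libraries reach into that range, and the other lines lie at or below 13.7 CPM.

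Against the control the Fgf15 log2 fold change was -3.15 ± 0.39 (SE) in Nkx6.1-P2A-Nkx2.2 cells (edgeR adjusted p = 0.000631), a level 8.91-fold lower, and this call held under all 27 alternatives, with values from -3.67 to -2.79. It was -2.12 ± 0.35 in the Nkx6.1 line (edgeR adjusted p = 0.015), -1.81 ± 0.34 in Nkx6.1-P2A-Olig2 cells (edgeR adjusted p = 0.0131) and -1.77 ± 0.34 in the Nkx2.2 line (edgeR adjusted p = 0.0302). These 3 calls ended when either library of the line was left out, with edgeR adjusted p from 0.082 to 0.313. The Nkx2.2 call also ended without control replicate 2 (0.0758) or control replicate 4 (0.0815). Fitted with a term for the label series, the Nkx6.1-P2A-Olig2 value was -1.48 (edgeR adjusted p = 0.0694) and the Nkx6.1-P2A-Nkx2.2 value -2.82 (0.00292). In the Olig2 line it was -0.69 ± 0.31 and did not pass (edgeR adjusted p = 0.386). With the label number as a block, which leaves 3 residual degrees of freedom, Fgf15 passed in the Olig2 line (-1.29, edgeR adjusted p = 0.00891) and did not in the Nkx6.1 line (-1.32, 0.0912), while the other 3 lines passed.

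Whether the lines themselves differed in Fgf15 was tested between lines of the same label series. The Nkx6.1 line was below the Olig2 line by a log2 difference of -1.43 ± 0.39 (edgeR adjusted p = 0.0884) and the Nkx2.2 line by -1.08 ± 0.38 (edgeR adjusted p = 0.281). The Nkx6.1-P2A-Nkx2.2 line was below Nkx6.1-P2A-Olig2 cells by -1.34 ± 0.42 (edgeR adjusted p = 0.534), and the Nkx2.2 and Nkx6.1 lines differed by 0.35 ± 0.39 (edgeR adjusted p = 0.74). None passed, so the falls of Fgf15 in the Nkx2.2 and Nkx6.1 lines are not shown to differ from its value in the Olig2 line, and the 2-factor lines were not compared with that line. The difference of Nkx6.1 from Olig2 passed in DESeq2 (adjusted p = 0.00582), and in edgeR with the replicate block (-1.40, edgeR adjusted p = 0.0168), with the endoderm term (-1.81, 0.0291), without control replicate 3 (0.0449) and without control replicate 5 (0.0368). With the label number as a block it was -0.03 (edgeR adjusted p = 0.976).

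The authors' deposited table of ratios, counts of a library over the mean control count without correction for library totals, lists 224 genes for the 10 libraries of the lines. It holds 6 of the 34 members: Fgf5, Fgf10, Fgf15, Etv4, Etv5 and Il17rd. In the authors' deposited table the Fgf15 ratio was 0.0632 and 0.108 in the Nkx6.1-P2A-Nkx2.2 libraries and 0.433 and 0.600 in the Olig2 libraries, with the other 6 libraries between 0.130 and 0.276. The order of the lines there is the same as in CPM at both ends.

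Fgf15 has the FGF genes Fgf3 and Fgf4 as neighbours, with starts 58.4 and 49.2 kb upstream, and the cell cycle gene Ccnd1 on its other side, 43.4 kb away. Fgf3, a secreted ligand of hindbrain and tail bud, held 5.003 to 7.74 CPM in the controls and 2.14 to 4.01 in the 2-factor libraries. These groups did not overlap, but the log2 fold changes did not pass, at -1.04 ± 0.29 in Nkx6.1-P2A-Nkx2.2 cells (edgeR adjusted p = 0.0784) and -1.04 ± 0.28 in Nkx6.1-P2A-Olig2 cells (0.0716). Fgf4, the ligand of pluripotent cells, spread within groups: the Nkx6.1 libraries held 5.75 and 11.6 CPM and the controls 3.45 to 8.35, and no line passed. Ccnd1 held 170 CPM in the control and its log2 fold changes ran from -0.12 to 0.63 with none past the threshold.

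Fgf10, a ligand of epithelial and neural progenitors, held 12.0, 9.77, 8.16, 11.0 and 11.9 CPM in the 5 controls, 4.89 and 5.11 CPM in the Nkx6.1-P2A-Nkx2.2 libraries and 2.78 and 3.88 CPM in the Nkx6.1-P2A-Olig2 libraries. Both 2-factor lines lay below all controls, and the single-factor lines, at 5.29 to 10.1 CPM, overlapped them. The log2 fold change was -1.67 ± 0.30 in Nkx6.1-P2A-Olig2 cells (edgeR adjusted p = 0.00965), a call lost without replicate 1 (0.107) or replicate 2 (0.0708) of that line. In Nkx6.1-P2A-Nkx2.2 cells it was -1.08 ± 0.29 and did not pass (edgeR adjusted p = 0.0686). The 2-factor lines did not differ from each other (0.59 ± 0.35, edgeR adjusted p = 1) at this number of libraries.

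The other ligands were low and none passed in any comparison with the control. Fgf8, the ligand of the isthmus and tail bud, was at 0.0556 to 0.676 CPM in the controls and at 0.693 to 2.17 in the Nkx6.1-P2A-Nkx2.2 libraries, a log2 fold change of 1.62 ± 0.54 (edgeR adjusted p = 0.154). Its libraries in the Nkx2.2 line and in both 2-factor lines lay above all controls, at 1 to 13 counts per control library. Fgf17 and Fgf18 belong to the same subfamily. Fgf18 had a log2 fold change of 1.13 ± 0.45 in Nkx6.1-P2A-Olig2 cells (edgeR adjusted p = 0.222), and Fgf17 was too low to be tested, at 0.0556 to 1.25 CPM over the 15 libraries. Fgf8 and Fgf18 passed the filter on low counts through libraries of the lines alone. That filter favours values above the controls for both genes, so their values are descriptions only.

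Fgf5, a marker of the epiblast that follows the naive state, held 14 to 26 counts in each control library and 0 counts in Nkx6.1-P2A-Nkx2.2 replicate 2. Its log2 fold changes were between -2.44 and -0.84 and none passed. Fgf5 passed the filter on low counts through control libraries alone, which favours values below the control. The receptor-binding ligands Fgf1 and Fgf9 were negative in 4 and 5 of the 5 lines and did not pass, with control levels of 7.43 ± 1.47 and 3.65 ± 1.73 CPM (SD, n = 5). Fgf11 and Fgf13 are intracellular FGF homologous factors, which bind sodium channels and not FGF receptors. Fgf11 was above all controls in the Nkx6.1, Olig2 and 2-factor lines with log2 fold changes of 0.41 to 0.80 and did not pass, and Fgf13 was negative in all 5 lines, from -0.68 to -0.16. Fgf2, the other low ligand, had 1 to 15 counts per library and was not tested.

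Of the 9 receptors and partners, none passed in a single-factor line, Flrt3 fell in both 2-factor lines and Klb fell in Nkx6.1-P2A-Olig2 cells. The 4 tyrosine kinase receptors did not pass in any line. Fgfr1, the main receptor of embryonic neural progenitors, held 171 ± 20.1 CPM (SD, n = 5) in the control, and its log2 fold changes ran from -0.29 to 0.05. Fgfr2 held 112 ± 9.64 CPM in the control, with log2 fold changes from -0.29 to -0.08, and its Nkx6.1 and Nkx6.1-P2A-Nkx2.2 libraries lay below all controls.

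Fgfr3, the receptor of ventricular zone progenitors, held 18.7, 19.8, 21.7, 20.5 and 39.9 CPM in control replicates 1 to 5. It held 22.4 and 35.7 CPM in the Nkx2.2 line, 32.1 and 54.3 in the Olig2 line, 26.2 and 42.0 in Nkx6.1-P2A-Nkx2.2 cells and 25.5 and 47.7 in Nkx6.1-P2A-Olig2 cells, all above control replicates 1 to 4, and 21.8 and 18.7 in the Nkx6.1 line. The Olig2 line had the highest fold, a log2 fold change of 0.84 ± 0.33 (edgeR adjusted p = 0.288). Fgfr4 held 13.6 to 19.3 CPM in controls 1 to 4, 33.3 in control replicate 5 and 32.3 and 39.4 in the Olig2 line (0.82 ± 0.33, edgeR adjusted p = 0.323). Unlike Fgfr3, its Nkx6.1 libraries, at 22.55 and 23.18 CPM, were above controls 1 to 4. Nkx6.1-P2A-Olig2 replicate 1, at 16.08 CPM, was within the range of those controls. Control replicate 5 had the highest endoderm sum and the Olig2 libraries, at 570 and 603 CPM, the next highest, while the sums of the 2-factor libraries, 219 to 442 CPM, were not above control replicates 1 to 4. Without control replicate 5, Fgfr3 passed in the Olig2 line (1.09 ± 0.27, edgeR adjusted p = 0.0489) and Fgfr4 did not (1.07 ± 0.28, 0.0655). With the endoderm sum as a term, added after seeing the data, the Olig2 values were 0.64 ± 0.22 and 0.56 ± 0.17 and did not pass. In that fit Fgfr4 passed as higher in Nkx6.1-P2A-Nkx2.2 cells (0.937 ± 0.167, edgeR adjusted p = 0.0041) and Nkx6.1-P2A-Olig2 cells (0.965 ± 0.185, 0.00566). Fgfr3 passed as higher in Nkx6.1-P2A-Olig2 cells (1.098 ± 0.245, edgeR adjusted p = 0.0135). Of all tested genes 6.89% and 10.2% passed in these lines in that fit. The part of endoderm-like cells in these levels was not tested further. Fgfrl1, which binds FGF without a kinase domain, and Frs2 moved little, with log2 fold changes from -0.12 to 0.24 and from -0.19 to 0.11, and did not pass.

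Klb, or beta-Klotho, the co-receptor for Fgf15, held 27.1, 32.9, 23.6, 29.9 and 50.1 CPM in the controls and 12.0 and 17.8 CPM in Nkx6.1-P2A-Olig2 cells, below every control. Its log2 fold change there was -1.14 ± 0.27 (edgeR adjusted p = 0.0443). This call was lost without either library of that line, of the Nkx2.2 line or of the Nkx6.1 line, and without control replicate 2 or 4, with edgeR adjusted p from 0.0555 to 0.274. The other 4 lines had values from -0.31 to 0.28 and overlapped the controls.

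Flrt2 and Flrt3 are leucine-rich transmembrane proteins. Flrt3 binds FGF receptors and enhances ERK signalling in Xenopus, and both proteins are ligands of Unc5 guidance receptors. Flrt3 held 173, 188, 168, 192 and 242 CPM in the controls, 107 and 130 in Nkx6.1-P2A-Nkx2.2 cells, and 81.7 and 106 in Nkx6.1-P2A-Olig2 cells. It was at 116 and 146 in the Nkx6.1 line, also below every control, and at 185 to 215 in the Nkx2.2 and Olig2 lines, within the control range.

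The log2 fold change of Flrt3 was -1.04 ± 0.15 in Nkx6.1-P2A-Olig2 cells (edgeR adjusted p = 0.00279) and -0.70 ± 0.15 in Nkx6.1-P2A-Nkx2.2 cells (0.0254). In the Nkx6.1 line it was -0.56 ± 0.15 and did not pass (edgeR adjusted p = 0.0972). All 3 lines that carry Nkx6.1 were therefore on the lower side, and the direct test of the Nkx6.1 against the Olig2 line gave -0.71 ± 0.17 (edgeR adjusted p = 0.0611). The call in Nkx6.1-P2A-Olig2 cells was lost without its replicate 1 (0.0556). The call in Nkx6.1-P2A-Nkx2.2 cells was lost without its replicate 1 (0.282) or 2 (0.109), control replicate 2 (0.0513) or control replicate 4 (0.0577).

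Flrt2 was the 1 member that differed between lines, where 0.579% of all tested genes passed for Nkx2.2 against Nkx6.1. It held 21.9 and 25.3 CPM in the Nkx2.2 line, 10.1 and 12.8 in the Nkx6.1 line and 14.7, 18.2, 18.6, 19.03 and 14.45 in the controls. The Nkx2.2 libraries lay above and the Nkx6.1 libraries below all controls, and the difference between the lines was 1.04 ± 0.19 on the log2 scale (edgeR adjusted p = 0.0287). Neither line passed against the control (0.47 ± 0.15, edgeR adjusted p = 0.259, and -0.57 ± 0.16, 0.118). The call between the lines was lost without any 1 of their 4 libraries (edgeR adjusted p = 0.0555 to 0.339) or without control replicate 2 (0.0514), and with the label number as a block (0.76, 0.166).

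In the 12 genes of the feedback and target layer, values were below the control in nearly every case: 11 of 12 in the Nkx2.2 line, 9 in the Nkx6.1 line, 12 in the Olig2 line and 11 in each 2-factor line. Few passed: Etv5 in the Nkx2.2 line, 0 in the Nkx6.1 and Olig2 lines, and Etv5 and Il17rd in each 2-factor line. The median log2 fold change of the 12 was -0.28, -0.12, -0.33, -0.34 and -0.62 in the 5 lines in that order. The comparisons share the 5 control libraries, so their directions are not independent of each other. At an unadjusted p under 0.05 stood 2 of the 12 in the Nkx6.1 line, against 16.6% of all tested genes, and 3 in the Olig2 line, against 12.7%. There were 5 in the Nkx2.2 line, 5 in Nkx6.1-P2A-Nkx2.2 cells and 6 in Nkx6.1-P2A-Olig2 cells, where the share of all tested genes is not given here. DESeq2 called 0 of all 32 members in the Olig2 line, against 3.08% of all tested genes.

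Etv5, a Pea3-group ETS factor that carries ERK signals to target genes, held 53.9, 50.5, 49.5, 49.8 and 46.9 CPM in the controls. It held 28.5 and 28.7 CPM in the Nkx2.2 line, 34.5 and 42.0 in the Nkx6.1 line and 50.5 and 32.2 in the Olig2 line. The 2-factor libraries held 28.3 and 19.2 (Nkx6.1-P2A-Nkx2.2) and 21.6 and 19.2 (Nkx6.1-P2A-Olig2). All lines except Olig2 were below every control.

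The Etv5 log2 fold change was -1.30 ± 0.18 in Nkx6.1-P2A-Olig2 cells (edgeR adjusted p = 0.00165), past the threshold under all 27 alternatives. It was -1.08 ± 0.17 in Nkx6.1-P2A-Nkx2.2 cells (edgeR adjusted p = 0.00374), a call lost without replicate 2 of that line (0.126). The Nkx2.2 value of -0.81 ± 0.17 (edgeR adjusted p = 0.0469) sat at the threshold and was lost under 15 of 27 alternatives, among them the loss of either library of that line (0.3 and 0.418), of either library of the Nkx6.1 or Nkx6.1-P2A-Olig2 line, or of control replicate 1, 2, 3 or 4. In the Nkx6.1 and Olig2 lines it was -0.39 and -0.28 and did not pass.

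Its relative Etv4 had the same direction at a lower level and did not pass. Etv4 held 9.13, 7.996, 7.28, 7.26 and 6.504 CPM in the controls, 3.33 and 1.88 in Nkx6.1-P2A-Olig2 cells, 5.61 and 2.52 in Nkx6.1-P2A-Nkx2.2 cells and 6.20 and 2.34 in the Olig2 line. These 3 lines lay below all controls, with log2 fold changes of -1.54 ± 0.40 (edgeR adjusted p = 0.0597), -0.93 ± 0.38 (0.274) and -0.85 ± 0.38 (0.371). In the Olig2 line it was the 1 member below all controls. Etv1, the third of the group, held 2.00 to 6.78 CPM in the controls, with control replicate 5 lowest, and had log2 fold changes from -1.24 to -0.26.

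Il17rd, a transmembrane inhibitor of Ras and ERK signalling, held 66.4, 54.7, 58.0, 54.7 and 40.1 CPM in the controls. It held 26.1 and 18.3 CPM in Nkx6.1-P2A-Nkx2.2 cells and 30.6 and 15.9 in Nkx6.1-P2A-Olig2 cells, below every control. The Nkx2.2 libraries, at 32.1 and 28.6, were also below every control. The Olig2 libraries were apart from each other, at 51.3 and 28.4. The log2 fold change was -1.31 ± 0.28 in Nkx6.1-P2A-Nkx2.2 cells (edgeR adjusted p = 0.0254) and -1.23 ± 0.28 in Nkx6.1-P2A-Olig2 cells (0.0329), while the Nkx2.2 value of -0.85 ± 0.27 did not pass (0.258).

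With a term for the label series neither Il17rd call held (-1.10, edgeR adjusted p = 0.131, and -1.02, 0.16). The Nkx6.1-P2A-Nkx2.2 call was lost without either library of that line (0.0986 and 0.409) or control replicate 2 (0.0521). The Nkx6.1-P2A-Olig2 call was lost without its replicate 2 (0.345), either library of the Nkx6.1 line (0.0504 and 0.0503) or any 1 of control replicates 1 to 4 (0.0546 to 0.0644).

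Dusp6, the cytoplasmic phosphatase of ERK, spread widely within groups. The controls held 51.4, 40.6, 44.4, 43.0 and 27.7 CPM and the libraries of Nkx6.1-P2A-Olig2 cells 30.0 and 13.3. Its log2 fold changes ran from -0.93 to -0.31 and none passed. The nuclear phosphatases Dusp4 and Dusp5 did not pass either. Dusp4 lay below all controls in the Nkx2.2 and Nkx6.1 lines, with log2 fold changes of -0.53 ± 0.17 (edgeR adjusted p = 0.244) and -0.51 ± 0.17 (0.154), and near 0 in the 2-factor lines (-0.15 and -0.09). Dusp5 ran from -0.20 to 0.01.

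The Sprouty proteins inhibit receptor tyrosine kinase signalling upstream of Ras. Spry1 held 15.2, 14.3, 14.2, 14.3 and 10.3 CPM in the controls and 9.61 and 5.76 in Nkx6.1-P2A-Olig2 cells, which lay below all of them (-0.83 ± 0.23, edgeR adjusted p = 0.0749). Spry2 lay below all controls in the Nkx2.2 line and both 2-factor lines, with log2 fold changes from -0.52 to -0.43, and did not pass. The Spred proteins, which act on Ras and Raf, were near the control: over the 5 lines Spred1 ran from -0.33 to 0.02, Spred2 from -0.21 to 0.03 and Spred3 from -0.23 to 0.26. Spred1 was below all controls in the Nkx2.2 line.

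**Figure D4:**
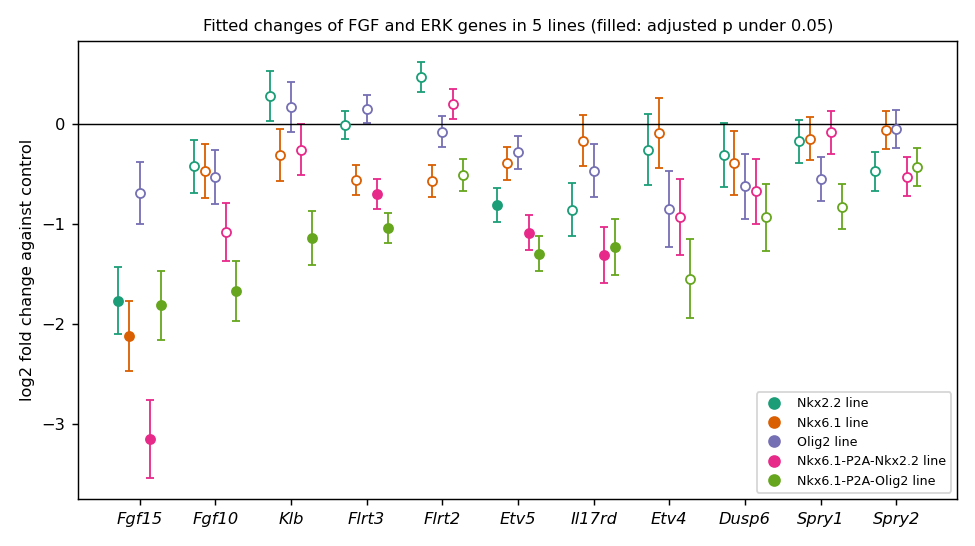
log2 fold change against the control (points) with its standard error (whiskers) for 11 members in the 5 lines; filled points have an adjusted p under 0.05 in edgeR's quasi-likelihood test. Fgf15 reaches -3.15 in Nkx6.1-P2A-Nkx2.2 cells, Etv5 is filled in 3 lines, and Etv4, Dusp6, Spry1 and Spry2 lie below 0 without passing.

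Sequence just upstream of the start is shown for 3 members that fell in both 2-factor lines and have an entry, Etv5, Flrt3 and Il17rd, and for Dusp6 as a feedback gene whose window holds an ETS core. Windows are from RefSeq on GRCm38.p6, the assembly of mm10, 5′ to 3′ on the strand of the gene: Dusp6 at chr10:99262981-99263230 (plus strand), Etv5 at chr16:22439720-22439820 (minus strand), Flrt3 at chr2:140671477-140671726 (minus strand) and Il17rd at chr14:27038751-27038940 (plus strand). Those of Dusp6 and Flrt3 end at the base before the RefSeq start. The Etv5 and Il17rd windows were cut to 101 and 190 bases, where the GENCODE gene begins, short of their RefSeq starts. Capitals mark the ETS core CGGAAG, read here on the other strand as CTTCCG.
Dusp6: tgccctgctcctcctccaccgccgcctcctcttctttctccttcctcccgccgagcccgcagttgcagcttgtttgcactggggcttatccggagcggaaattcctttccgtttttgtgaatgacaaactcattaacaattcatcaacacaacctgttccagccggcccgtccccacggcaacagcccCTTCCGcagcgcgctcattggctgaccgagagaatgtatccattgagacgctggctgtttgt
Etv5: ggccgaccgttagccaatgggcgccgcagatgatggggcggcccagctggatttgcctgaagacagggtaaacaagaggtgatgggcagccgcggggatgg
Flrt3: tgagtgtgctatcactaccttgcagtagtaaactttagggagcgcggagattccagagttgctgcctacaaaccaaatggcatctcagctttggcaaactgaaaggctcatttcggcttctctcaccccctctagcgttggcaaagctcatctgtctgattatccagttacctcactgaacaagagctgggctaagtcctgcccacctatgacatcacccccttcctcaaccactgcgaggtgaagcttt
Il17rd: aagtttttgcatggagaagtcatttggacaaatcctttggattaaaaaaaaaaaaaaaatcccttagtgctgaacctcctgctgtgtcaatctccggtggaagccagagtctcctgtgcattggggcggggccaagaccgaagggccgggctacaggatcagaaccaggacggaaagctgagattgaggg

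The 27 members with an entry have 33 full RefSeq windows of 250 bases. The motif counts use these and not the shortened stretches printed for Etv5 and Il17rd. CGGAAG, searched on both strands, was in 5 of these 33 (Dusp6, Fgfrl1, Frs2, Spred1 and Spred2) and in 13.6% of 32851 windows of all genes, and in Dusp6 it lies 62 bases before the start. AAGTG, the core bound by Nkx2 factors, was in 10 of 33 and in 40.7% of all windows. TAATTA, bound by Nkx6 and many other homeodomain proteins, was in 0 of 33 and in 4.84% of all windows. CATATG, an E-box bound by Olig proteins, was in 0 of 33 and in 3.46% of all windows. These letters are counted without regard to overlap between motifs, and a match or its absence in these windows describes the letters only.

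The amount of pluripotency RNA differed between libraries too. The 8 pluripotency markers (Pou5f1, Nanog, Zfp42, Klf4, Esrrb, Tdgf1, Dppa5a and Utf1) summed to 211 to 414 CPM in the controls, 148 and 254 in the Nkx2.2 line, 243 and 356 in the Nkx6.1 line and 145 and 346 in the Olig2 line. The 2-factor libraries, at 122 to 198 (Nkx6.1-P2A-Nkx2.2) and 129 to 149 (Nkx6.1-P2A-Olig2), were below every control. None of the 8 was at 0 in any group and none passed in any line. Between the Olig2 libraries, replicate 1 with the higher sum also had the higher Il17rd (51.3 against 28.4 CPM), Etv5 (50.5 against 32.2) and Dusp6 (35.3 against 18.7), and the lower Fgf15 (24.3 against 29.1). Etv5 was also higher in the library with the higher sum in the Nkx6.1 and both 2-factor lines, but not in the Nkx2.2 line (28.5 against 28.7). Among the controls, replicate 3 had the lowest sum (211) with Il17rd at 58.0 CPM, and replicate 5 (282) had the lowest Il17rd (40.1).

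**Figure D5:**
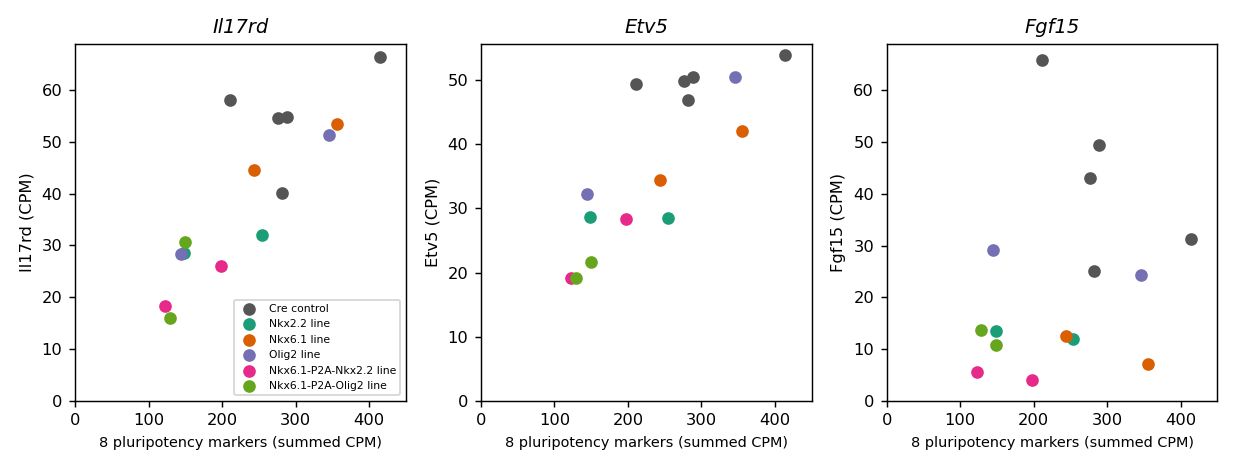
Level of Il17rd, Etv5 and Fgf15 (CPM) against the summed level of 8 pluripotency markers (CPM) in each of the 15 libraries, coloured by group. The 4 libraries of the 2-factor lines have marker sums of at most 198 CPM and Etv5 of at most 28.3 CPM, and the Nkx6.1 libraries have Fgf15 at 7.10 and 12.6 CPM with marker sums inside the control range.

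With the log2 of that sum as a term in the fit, an alternative chosen after seeing the data, the Il17rd calls were lost in both 2-factor lines (-0.86, edgeR adjusted p = 0.0707, and -0.69, 0.146). The Klb call (0.106) and the Flrt3 call in Nkx6.1-P2A-Nkx2.2 cells (0.0508) missed the threshold with folds that hardly moved, at -1.06 against -1.14 for Klb and -0.70 in both fits for Flrt3. Etv5 stayed past the threshold in 3 lines, at -0.59, -0.76 and -0.90, and Fgf10 in Nkx6.1-P2A-Olig2 cells at -1.01. Fgf15 stayed past the threshold in 4 lines, at -2.07 (Nkx2.2), -2.10 (Nkx6.1), -2.40 (Nkx6.1-P2A-Olig2) and -3.67 (Nkx6.1-P2A-Nkx2.2). More of all tested genes passed in that fit. The shares were 1.37% (Nkx2.2), 4.01% (Nkx6.1), 4.73% (Nkx6.1-P2A-Olig2) and 5.59% (Nkx6.1-P2A-Nkx2.2). Without the term they were 0.722%, 0.737%, 2.84% and 2.85%. The markers and the feedback genes were measured in the same RNA, and how much of either belongs to remaining stem cells was not tested.

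In the other comparisons between lines, 0 of 32 members passed in edgeR's test, where 1.84% of all tested genes passed for Nkx2.2 against Olig2, 1.88% for Nkx6.1 against Olig2 and 0.157% for Nkx6.1-P2A-Nkx2.2 against Nkx6.1-P2A-Olig2. At an unadjusted p under 0.05 these comparisons had 3, 6 and 4 members, against 9.78%, 15.7% and 4.53% of all tested genes. DESeq2 called 0, 2 (Flrt3 and Fgf15) and 0, against 2.75%, 3.91% and 0.565% of all tested genes. For Nkx6.1 against Olig2, edgeR called Flrt3 without either library of Nkx6.1-P2A-Olig2 cells, Fgf15 without control replicate 3, and both without control replicate 5.

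The rest of the pathway was read from lists of genes outside the 34. Of 11 other FGF ligands and binding proteins only 4 had enough reads to be tested, and 0 passed in any line. Of 12 genes of the caudal, FGF-exposed neural plate only 5 were tested, and 0 passed. Of all tested genes 0.722% to 2.85% passed in the lines, so 0 calls among so few genes says little about them. Of 15 tested other feedback inhibitors, Lrig3, a relative of the receptor inhibitor Lrig1, fell in both 2-factor lines from 48.3 CPM to 30.9 and 31.0 (-0.65 ± 0.09, edgeR adjusted p = 0.00143, and -0.64 ± 0.09, 0.00185). Errfi1, an inhibitor of the EGF receptor, rose in Nkx6.1-P2A-Nkx2.2 cells from 75.9 to 110 CPM (0.54 ± 0.11, 0.0167).

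Of 12 tested immediate early genes, Phlda1 fell in 3 lines from 68.8 CPM in the control, to 38.2 in the Nkx2.2 line (-0.85 ± 0.17, edgeR adjusted p = 0.0341), 31.7 in Nkx6.1-P2A-Nkx2.2 cells (-1.12 ± 0.17, 0.00319) and 33.6 in Nkx6.1-P2A-Olig2 cells (-1.03 ± 0.17, 0.00589). Etv5 fell in the same lines, and a link between the genes was not tested. The median log2 fold change of the 12 immediate early genes in these lines was -0.23, 0.04 and 0.02, in the order above. Myc fell in the Olig2 line from 33.6 to 12.4 CPM (-1.44 ± 0.32, 0.0357). Of 19 tested genes of heparan sulfate, the sulfotransferase Ndst1 rose in the Olig2 line (0.64 ± 0.15, edgeR adjusted p = 0.0485) and the sulfatase Sulf1, which removes sulfate from heparan sulfate, fell in Nkx6.1-P2A-Olig2 cells (-0.73 ± 0.11, 0.00414).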

How the data were processed

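STAR, DESeq2 and mm10 are named in the submitters' processing notes, without versions or roles. Column-purified RNA went into TruSeq libraries, per the labels' protocols. Which annotation, counter and strand setting were used is not given in the sources used here; overlapping or antisense genes may share reads. The first deposited table, on a sheet named for RPKM, holds whole-number counts (0 non-integer cells) per gene and library. In 27 entries, 0.228% to 0.253% of each library, a date had replaced the symbol, and these stayed in totals only. The second deposited table gives the authors' ratio of a count to the mean control count, which all 2240 cells matched within 1e-08.

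Genes reaching 1 CPM in 2 or more libraries (13982) were tested with edgeR 4.0.16 (R 4.3.3): TMM, glmQLFit and glmQLFTest, 1 model of 6 groups and 15 libraries with 9 residual degrees of freedom, Benjamini-Hochberg adjustment, threshold 0.05. "Rose" and "fell" mean past it. The script was tested on simulated data. Per-library values and full statistics are given for Fgf15 and members past the threshold in any of 9 comparisons, and values for others. List members are named where past the threshold, at most 4 per list and line. The members and lists were chosen with earlier results of these data known. Positions and exon lengths are from GENCODE M21. Alternatives were DESeq2 1.42.0, limma 3.58.1 on log2(CPM + 1), a 5 CPM filter, no filter, median-of-ratios scaling, a term for the label series (21 or 23), a block for the label number, one for the replicate number, only the compared groups, chromosomes 18 and Y left out, each library left out and, chosen after seeing the data, sums of pluripotency or endoderm markers as a term. Depth limits the ligands with few counts. The result of 1 further gene list is not reported here.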

Additional observations from a re-analysis of the deposited data

Results flagged for a closer look

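Among the 5 control libraries, replicate 5 lay apart from the other 4 for 5 members by Dixon's criterion (95% critical value 0.71), with 32 members looked at, where chance flags about 1 in 20 groups. It was high for the receptors Fgfr3 (39.9 CPM against 18.7 to 21.7) and Fgfr4 (33.3 against 13.6 to 19.3) and for the docking protein Frs2 (141 against 106 to 114). It was low for the inhibitors Spry1 (10.3 against 14.2 to 15.2) and Spred2 (47.0 against 52.6 to 53.2). The same library had the highest endoderm marker sum, 849 CPM against 335 to 462, and the part of that in the 5 values was not tested.

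The direct comparison of the Nkx2.2 with the Nkx6.1 line gave 1.04 on the log2 scale for Flrt2 (edgeR quasi-likelihood adjusted p = 0.0287), with the Nkx2.2 libraries above and the Nkx6.1 libraries below all 5 controls.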

How the results depend on the processing

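Over 27 alternatives each, 188 counts of members called stayed within 1.5 times of those reported and 55 did not. For the Nkx2.2 line (2 reported) the count was 1 with median-of-ratios scaling, the 5 CPM filter, the label series term, the replicate block or only the compared groups. For the Nkx6.1 line (1) it was 3 with DESeq2, 4 with the endoderm term and 0 with only the compared groups. For the Olig2 line (0) it was 2 with the replicate block, 7 with the label number block and 1 with the pluripotency term. For the Nkx6.1-P2A-Nkx2.2 line (4) it was 9 with the label number block and 11 with the endoderm term. For the Nkx6.1-P2A-Olig2 line (6) it was 10 with DESeq2, 13 with the label number block and 17 with the endoderm term. With 1 library left out, the counts ran from 0 to 2, 0 to 1, 0 to 1, 1 to 5 and 2 to 9 in these lines. Between lines, Nkx2.2 against Nkx6.1 (1) had 2 with the replicate block and 0 to 1 with 1 library left out, and Nkx2.2 against Olig2 (0) had 3 with the label number block. Nkx6.1 against Olig2 (0) had 3 with the replicate block, 2 with DESeq2 or the endoderm term, 1 with limma, no filter, the label series term, the label number block or only the compared groups, and 0 to 2 with 1 library left out. The 2-factor lines against each other (0) had 4 with the label number block and 2 with the endoderm term. Of all tested genes, the replicate block called 2.09% for Nkx2.2 against Nkx6.1 and 4.34% for Nkx6.1 against Olig2. For Nkx6.1 against Olig2, DESeq2 called 3.91%, the endoderm term 2.72% and the label number block 5.69%. Limma, no filter, the label series term and only the compared groups called 1.35% to 2.05% there. The label number block called 6.27% for Nkx2.2 against Olig2. Between the 2-factor lines it called 1.33% and the endoderm term 0.672%. The calls among all tested genes moved too, by over 1.5 times in 88 cases: with the label number block 14.5%, 7.93% and 9.08% of all genes passed in the Olig2 and both 2-factor lines, with the endoderm term 4.36%, 6.89% and 10.2% in the Nkx6.1 and both 2-factor lines, and with DESeq2 3.48% and 5.11% in the Nkx6.1 and Nkx6.1-P2A-Olig2 lines. The cause of these changes was not tested. For the fits with 1 library left out, the shares of all tested genes are not given here. Of the log2 fold changes of named genes, 439 kept direction and call, 67 lost the call, 6 gained one and 1 reversed: Fgf15 in the Nkx2.2 against the Nkx6.1 line, -0.91 with the label number block against 0.35. That fit has 3 residual degrees of freedom. Correlations of deviations between libraries with the same replicate number ran from -0.358 to 0.727, and for label numbers from -0.521 to 0.727. Libraries sharing label 212, 215, 232 or 234 had positive values (0.060 to 0.727), and those sharing 210 or 214 negative ones (-0.093 and -0.521). In groups of 2 the deviations mirror each other, so these values cannot settle whether the numbers pair the libraries. The reported fit has no term for pairing. With a library of a line left out, the remaining one is assumed to vary like the other groups.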
